A study of Homo sapiens with 4 samples.

Results

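The genes described here are 9 genes of retinoid and vitamin D signalling in FaDu cells: the retinoic acid receptors RARA, RARB and RARG, their partner RXRA, the retinoic acid carrier CRABP2, the retinoid-responsive genes RARRES1 and RARRES3, the vitamin D receptor VDR, and CYP24A1, the enzyme that degrades active vitamin D. They were chosen by name, from a table of 25548 gene symbols, with their levels in the FaDu libraries already known, so their levels and differences are a description and carry no test. FaDu is an established squamous carcinoma line from the hypopharynx. Messenger RNA was measured by RNA-seq in 1 library of FaDu cells given vehicle, labelled DMSO, and in 1 library of FaDu cells given both 5-aza-2'-deoxycytidine (Aza), a nucleoside that lowers DNA methylation, and TSA (trichostatin A), which inhibits histone deacetylases. Aza was given at 5 µM on days 1 to 3 and TSA at 100 nM on day 3. Control cells received DMSO in place of Aza and, by the protocol, ethanol in place of TSA. Both drugs were given together, so their separate parts cannot be told apart. The labels name no retinoid or vitamin D compound, and the medium held serum. A second line, UMSCC47, was sequenced too, but its values are not used here. The Spearman correlation was 0.12 between its own libraries, against 0.91 between the FaDu libraries. Between the lines it was 0.11 for the DMSO libraries and 0.12 for the Aza/TSA libraries. The UMSCC47 values thus do not seem to follow the row names, and the cause was not tested.

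Retinoic acid, made from vitamin A, enters the nucleus with the help of CRABP2 and binds RAR proteins, which sit on DNA as pairs with RXR proteins. Without ligand the pair holds corepressors and histone deacetylases at its target genes, and with ligand it exchanges them for coactivators. Active vitamin D works in the same way through VDR paired with RXR, and CYP24A1 is its best known target, a feedback enzyme that breaks the hormone down. In squamous epithelium RARG is the main RAR, retinoids hold back cornification, and silencing of RARB and RARRES1 by promoter methylation has been described in many carcinomas.

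RNA levels are given in FPKM (fragments counted per transcript length and per mapped fragments), a unit per length that allows levels of different genes to be compared. The difference of a gene is log2((treated FPKM + 1)/(DMSO FPKM + 1)), and 2-fold on that scale is the line for calling a gene higher or lower, which understates differences at low levels. With 1 library in each group no difference has a replicate check and no p-value is given, and the number of reads behind a value is unknown. The 11 squamous epithelial markers looked at were all at 10.7 FPKM or more in both libraries, but not all stayed level. KRT5 was 687 and 226 FPKM and TP63 73.7 and 23.2, more than 2-fold lower with Aza/TSA, while KRT14 (49.8 and 147 FPKM) and KRT18 (514 and 1235) were more than 2-fold higher. The 8 fibroblast markers summed to 0.794 FPKM with DMSO and 5.20 with Aza/TSA, the 6 leukocyte markers to 1.72 and 5.20, and the 4 endothelial markers to 0.943 and 3.73. Among the defining markers PDGFRA and KDR were listed at 0 in both libraries and PTPRC was at 0.0513 and 0.0385 FPKM, while COL1A1 was 0.749 and 3.08, THY1 was listed at 0 and then 1.55, CDH5 was 0.743 and 2.85, and VWF 0.200 and 0.869. The part of such genes in the differences below was not tested.

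To show what the receptors bind and what Aza can act on, promoter sequences were read from the RefSeq table of GRCh38.p14, which held 12 promoter windows for 6 of the 9 genes (RARA, RARB, RARG, RXRA, RARRES1 and CRABP2). Each window runs from 250 bases before a transcript start to 50 bases after it. The files use hg19, so these coordinates are not those of the deposited table. In these windows the receptor hexamer AGGTCA and its variants, namely AGTTCA and also GGGTCA and also GGTTCA, were searched on both strands, as were direct repeats of any of them with 1 to 5 bases between (DR1 to DR5), which contain the hexamers. One of the 4 RARB windows is shown because it was the only window of these genes with a direct repeat. Capitals mark the receptor hexamers in the 250 bases before the start, chr3:25428013-25428262, plus strand.
RARB: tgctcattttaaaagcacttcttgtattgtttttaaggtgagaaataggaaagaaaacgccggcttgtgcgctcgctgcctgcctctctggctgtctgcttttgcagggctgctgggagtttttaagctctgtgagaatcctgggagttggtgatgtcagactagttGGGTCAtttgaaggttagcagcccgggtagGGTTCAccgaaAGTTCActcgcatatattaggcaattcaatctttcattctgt
The DR5 repeat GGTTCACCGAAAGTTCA begins 53 bases before the start, and is the textbook retinoic acid response element of this gene. DR5 repeats of this kind were in 31 of the 35116 promoter windows searched (0.0883%), which left out the windows of 1 chromosome. Single hexamers were in 38.6% of the windows searched, against 6 of the 12 windows of these genes.

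The promoters of CRABP2 and RARRES1 are shown with each CpG in capitals, the dinucleotide whose methylation Aza lowers. Both windows hold more CpGs than the median window searched, 14, as do windows of RARA, RARB and RXRA. The pair was picked with the genes' differences known, 2.10 and −0.06, so it cannot link CpG counts to differences. The stretches shown are the 250 bases before the start at chr1:156705785-156706034, minus strand, and chr3:158732458-158732707, minus strand.
CRABP2: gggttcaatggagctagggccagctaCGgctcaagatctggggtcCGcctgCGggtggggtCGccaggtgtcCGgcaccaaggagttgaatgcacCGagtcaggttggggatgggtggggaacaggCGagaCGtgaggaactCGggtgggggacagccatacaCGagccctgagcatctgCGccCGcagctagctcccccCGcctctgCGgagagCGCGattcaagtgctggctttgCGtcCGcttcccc
RARRES1: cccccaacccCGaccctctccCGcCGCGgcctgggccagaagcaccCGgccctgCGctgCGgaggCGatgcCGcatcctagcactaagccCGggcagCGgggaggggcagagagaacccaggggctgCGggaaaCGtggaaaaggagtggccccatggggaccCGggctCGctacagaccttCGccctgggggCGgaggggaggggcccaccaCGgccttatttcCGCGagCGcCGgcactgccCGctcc
These stretches hold 18 CpGs in CRABP2 and 23 in RARRES1. Over the whole windows the counts were 20 and 28, and 39.5% and 24.2% of the windows searched held more. The most CpG-rich window of these genes was the first of RXRA, with 65 CpGs, which 0.0228% of the windows searched exceeded. The RARB window shown above held 7, but the first RARB window held 33, which 15.6% of the windows searched exceeded. DNA methylation was not measured, so these sequences show where CpGs lie and not whether they were methylated in FaDu.

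Of the 9 genes, 3 were called higher with Aza/TSA (CYP24A1, CRABP2 and RARA), none was called lower, and 6 were neither. Their median difference was 0.78 on the log2 scale. Of the 13558 genes that reached 1 FPKM in 1 of the FaDu libraries or in both, called measured here, 16.1% were called higher and 5.21% lower, with a median of 0.13. The numbers called over these measured genes were 2178 higher and 706 lower. Once the trend with GC content described below was subtracted they were 944 and 544, of 12529 genes with a known GC content. In these bulk libraries, more RNA per cell and more cells with the RNA cannot be told apart. All 9 genes passed the filter, 8 of them in the DMSO library alone and RARB only through the treated library.

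**Figure D1:**
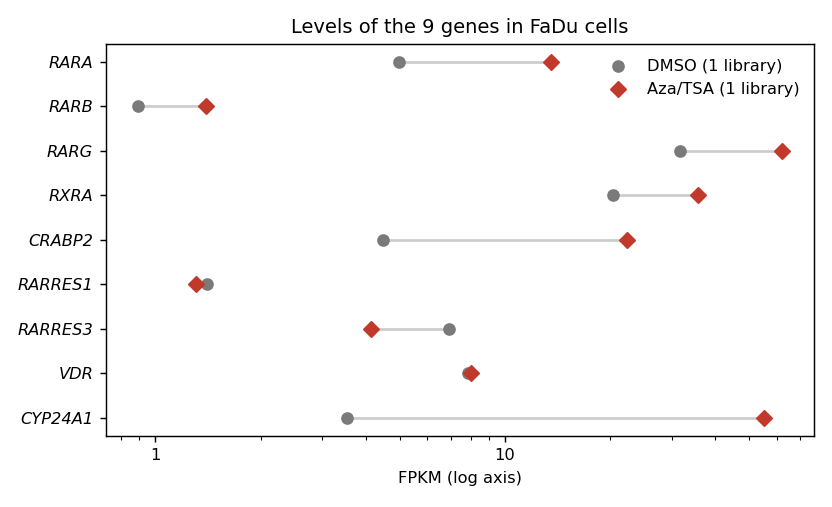
Levels of the 9 genes in the DMSO library (circles) and the Aza/TSA library (diamonds) of FaDu cells, in FPKM on a log axis, 1 library each. CYP24A1 spans the widest distance, from 3.54 to 55.1 FPKM, while VDR and RARRES1 differ least.

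The retinoic acid receptors are transcription factors that share one mode of DNA binding and differ in where they are expressed. RARG was 31.6 FPKM with DMSO and 62.1 with Aza/TSA, the highest level of the 9 genes in both. Its difference of 0.95 lay just under the 2-fold line. RARA was 4.98 and 13.5 FPKM, a difference of 1.28. RARB, the receptor that retinoic acid induces through the repeat shown above, was 0.892 and 1.39 FPKM, a difference of 0.34 and the lowest level of the 9 genes in the DMSO library. All 3 receptors were thus listed higher in the treated library, and only RARA passed 2-fold. Summed, the RAR genes were at 37.5 FPKM with DMSO and 77.0 with Aza/TSA. RARG made up 84.3% of that sum before treatment and 80.6% after, RARA 13.3% and 17.6%, and RARB 2.38% and 1.81%. The make-up of the family therefore stayed dominated by RARG while its sum was higher in the treated library. FPKM per gene do not separate the RARB starts, and exons of RARB overlap those of TOP2B on the other strand, a DNA topoisomerase gene listed at 51.6 and 28.8 FPKM. The library kit keeps strand, but whether strand was used in the quantification is not given in the sources used here.

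RXRA, the shared partner of RAR and VDR proteins, was 20.4 FPKM with DMSO and 35.7 with Aza/TSA, a difference of 0.78. RXRB was 10.1 and 15.5 FPKM, a difference of 0.57, and RXRG was 0.0598 and then listed at 0. Neither measured RXR gene reached 2-fold. RXRA held 66.7% of the summed RXR level with DMSO and 69.7% in the treated library. The sum was 30.5 and 51.2 FPKM, so RAR and RXR genes together were listed at higher levels in the treated library. RARG and RXRA stayed the largest part of their sums, while the RARA share of the RAR sum went from 13.3% to 17.6%.

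The receptor differences went with the GC content of the transcripts. Across 7129 genes that reached 5 FPKM in both libraries, the Spearman correlation of the log2 difference with GC content was 0.67, a description across genes of the same libraries. The longest annotated transcripts of RARA, RXRA and RARG had 63.0%, 60.6% and 60.0% GC, the highest of the 9 genes, where the median of measured genes was 48.4%. With the GC trend subtracted, RARA was at 0.43, RARG at 0.21, RXRA at 0.01 and RXRB at −0.11, so that RXRB turned in direction and RARA was no longer past 2-fold. RARB, at 42.6% GC, was at 0.55. CYP24A1 and CRABP2, at 45.9% and 55.8% GC, were at 3.67 and 1.55 and stayed past it. Whether this trend is technical was not tested. It was fitted over those 7129 genes and subtracted from every gene with a known GC content. RARA, RARB, CYP24A1, CRABP2, RARRES1 and RARRES3 were under 5 FPKM in 1 or both libraries, and so outside the fit. The subtraction also moved genes listed at 0 in both libraries, such as RLBP1 to −0.45 and S100G to 0.42. Calls gained or lost by such low genes, here and below, rest on a trend fitted on other, higher genes.

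**Figure D2:**
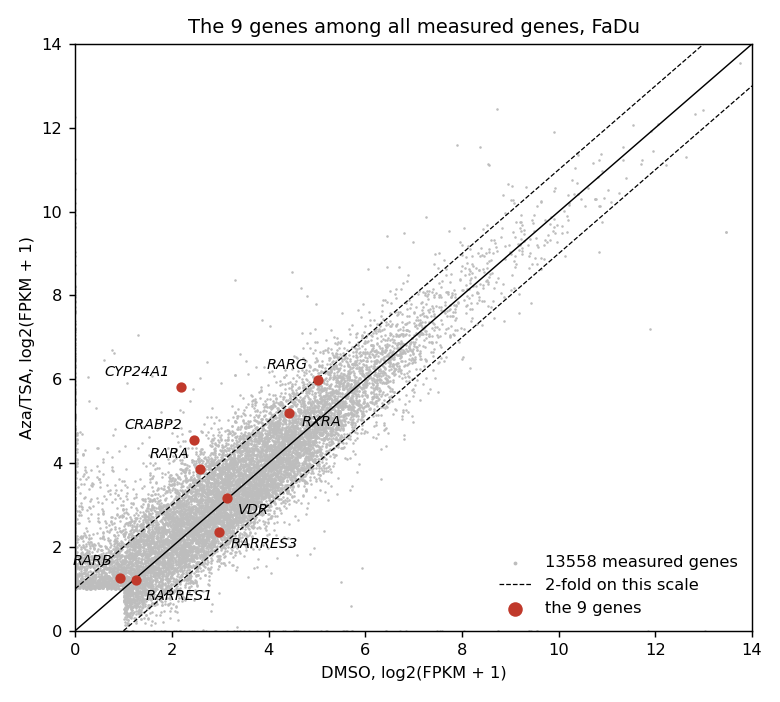
Each of the 13558 measured genes by its log2(FPKM + 1) in the DMSO library (horizontal) and the Aza/TSA library (vertical) of FaDu cells, with the 9 genes in red, the line of equality (solid) and 2-fold differences (dashed). CYP24A1, CRABP2 and RARA lie above the upper dashed line, RARG just under it, and no red point lies below the lower one.

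CRABP2 is the carrier that brings retinoic acid to RAR proteins. It was 4.46 FPKM with DMSO and 22.4 with Aza/TSA, 5.02 times as much in FPKM and a difference of 2.10 on the log2(FPKM + 1) scale. Only 3.33% of measured genes had a larger difference. FABP5, a fatty acid carrier that can bring retinoic acid to PPARD instead, was 55.3 and 47.4 FPKM, a difference of −0.22. FABP5 was thus listed at 12.4 times the level of CRABP2 in the DMSO library and at 2.12 times in the treated library. FABP5 was named after its values were seen.

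The other genes of retinoid uptake, transport and binding gave 3 of 10 called higher and none lower. Over all 25548 symbols, 8.53% were called higher and 2.76% lower, and over measured genes 16.1% and 5.21%. These shares are to be set beside the counts of this list and of each list below. RBP4, the carrier of retinol in blood, was 0.247 FPKM with DMSO and 7.56 with Aza/TSA. RBP7, a cellular retinol-binding protein, was 0.662 and 4.37 FPKM, and STRA6, the membrane receptor that takes up retinol, was 0.138 and 1.85. CRABP1, the other cellular retinoic acid-binding protein, was 3.36 and 6.61 FPKM, a difference of 0.80. The 3 called higher were all under 1 FPKM in the DMSO library and were counted as measured through the treated library alone, which makes a call of higher more likely. Counting also the unmeasured ones, the 10 genes had a median difference of 0.16, where that of all 25548 symbols was 0. STRA6, with the GC trend subtracted, was at 0.54 and no longer called, which left RBP4 and RBP7, and the median of the 6 measured genes went from 1.06 to 0.35. TTR, RBP2 and RLBP1 were listed at 0 in both libraries.

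**Figure D3:**
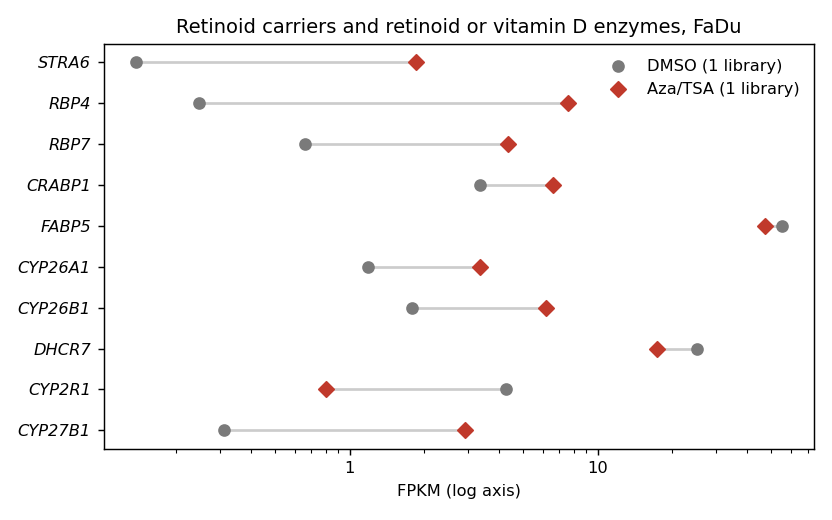
Levels in FPKM (log axis) of retinoid carriers, retinoic acid hydroxylases and vitamin D enzymes in the DMSO library (circles) and the Aza/TSA library (diamonds) of FaDu cells, 1 library each. STRA6, RBP4 and RBP7 lie under 1 FPKM in the DMSO library and between 1.85 and 7.56 in the treated library, while CYP2R1 goes the other way.

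The enzymes that make and store retinoids differed less. ALDH1A3, which makes retinoic acid from retinal, was at 206 FPKM with DMSO and 197 with Aza/TSA, and was named after its values were seen as the highest of its list. DGAT1, which can esterify retinol for storage, was 1.76 and 6.34 FPKM and was the only one of 24 such genes called higher, with none lower. RDH13, RETSAT and DHRS9 followed, with differences of 0.85, 0.71 and 0.61. The hydroxylases that degrade retinoic acid are themselves induced by it. Of 3 such genes, 1 was called higher and none lower, and CYP26C1 was listed at 0 and then 0.131 FPKM. CYP26B1 was 1.78 FPKM with DMSO and 6.21 with Aza/TSA, a difference of 1.38. CYP26A1 was 1.18 and 3.36, a difference of 0.998 that missed 2-fold narrowly. After GC correction these were 0.77 and 0.79, and no gene of either list was called.

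RARRES1 and RARRES3 were first described as genes that retinoids induce, and both are often lost in carcinomas. RARRES1, a membrane protein related to carboxypeptidase inhibitors, was 1.40 FPKM with DMSO and 1.31 with Aza/TSA, a difference of −0.06. RARRES3, a phospholipase and acyltransferase that slows growth of keratinocytes, was 6.91 and 4.15 FPKM, a difference of −0.62. They were the only members listed lower in the treated library, and neither reached 2-fold. With the GC trend subtracted RARRES3 was at −1.07, past 2-fold lower, and RARRES1 at −0.04. Exons of RARRES1 overlap those of MFSD1, a transporter gene on the other strand listed at 24.9 and 18.8 FPKM, so a low value of RARRES1 need not come from RARRES1 alone if strand was not used.

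Among 20 other genes reported as targets of retinoic acid, 2 were called higher and 1 lower, with a median of 0.17 over all of them. TGM2, a transglutaminase widely used as a marker of retinoid response, was 3.39 FPKM with DMSO and 21.6 with Aza/TSA, a difference of 2.37. STRA8, a germ-cell gene that retinoic acid switches on at meiosis, was listed at 0 and then at 1.06 FPKM. FOXA1, a pioneer transcription factor, went the other way, at 32.7 and 9.29 FPKM, a difference of −1.71. The corepressor NRIP1 was 5.09 and 2.56 FPKM, a difference of −0.78. These target genes did not share one direction. After subtraction of the GC trend, 1 was called higher and 2 lower, as STRA8 was at 0.59 and KRT19, a simple-epithelium keratin at 316 and 270 FPKM, was at −1.04. KRT19 was named after its values were seen.

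VDR was 7.83 FPKM with DMSO and 7.996 with Aza/TSA, a difference of 0.03 and the smallest of the 9 genes. CYP24A1, the target of VDR that degrades active vitamin D, was 3.54 and 55.1 FPKM, 15.6 times as much in FPKM and a difference of 3.63 on the log2(FPKM + 1) scale. It was the widest difference of the 9 genes, and 1.25% of measured genes had a larger one. CYP24A1 thus went from the seventh to the second highest level of the 9 genes, and from 0.452 to 6.89 times the level of VDR. The listed level of the receptor was thus nearly the same in both libraries while that of its target was not. With the GC trend subtracted VDR was at −0.42 and CYP24A1 at 3.67.

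The genes whose levels in both libraries were closest to those of CYP24A1, by Euclidean distance in log2(FPKM + 1) over the 2 FaDu libraries, were the histone gene HIST1H2BC (4.45 and 53.7 FPKM, distance 0.27), the myosin light chain gene MYL9 (4.21 and 43.7 FPKM, distance 0.38) and the keratinocyte surface gene LY6D (4.99 and 63.9 FPKM, distance 0.45). Those closest to VDR were SLC25A10, RAB32 and COL4A3BP, all within 0.02. With only 2 libraries such likeness is a matter of level alone.

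Of 8 other genes for vitamin D synthesis, transport and breakdown, 1 was called higher and 1 lower. CYP27B1, which makes the active hormone, was 0.313 FPKM with DMSO and 2.92 with Aza/TSA, a difference of 1.58. CYP2R1, which carries out the preceding hydroxylation, was 4.25 and 0.800 FPKM, a difference of −1.55. DHCR7, which draws the shared precursor toward cholesterol, was 25.2 and 17.3 FPKM. CYP27B1 was under 1 FPKM in the DMSO library, and after GC correction it was at 0.997, just under 2-fold. The same correction took DHCR7 from −0.51 to −1.19, so that 2 genes of the list were called lower and none higher. The activating and the degrading hydroxylase were thus both listed higher in the treated library, and the enzyme before them lower.

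Of 24 other genes reported as targets of vitamin D, 12 were measured. Of the 24, 5 were called higher and 1 lower, with a median of 0.09 over all of them. Of all 25548 symbols, 8.53% were called higher and 2.76% lower. CDKN1A, the cell-cycle inhibitor p21, was 16.2 FPKM with DMSO and 66.1 with Aza/TSA, a difference of 1.96. The phosphatase gene DUSP10 was 1.21 and 4.78 FPKM, and G0S2, a lipase inhibitor, was listed at 0 and then at 3.61. IGFBP3, which binds insulin-like growth factors, was 117 and 36.1 FPKM, a difference of −1.67. The other 2 called higher, named after their values were seen, were OSGIN1 (1.65 and 4.84 FPKM) and CD14 (1.62 and 4.59 FPKM). CD14 is also a monocyte marker, and made up most of the leukocyte sum given above. GC correction put OSGIN1 at 0.27 and CD14 at 0.44, which left 3 genes called higher. SPP1, S100G and DEFB4A were listed at 0 in both libraries, and the calcium channel gene TRPV6 at 0 and then 0.708 FPKM. CYP24A1 therefore stood beside target genes of either direction and several listed at 0.

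Other nuclear receptors that pair with RXR gave 1 of 12 called higher and none lower. NR1H2, an oxysterol receptor, was 13.6 FPKM with DMSO and 32.1 with Aza/TSA, a difference of 1.19. PPARD, which FABP5 serves, was 4.85 and 10.6 FPKM, a difference of 0.98. PPARA was 8.45 and 4.70 FPKM, and the orphan receptor NR4A2 16.5 and 9.02, differences of −0.73 and −0.81. Receptors of this class were thus listed on both sides of no change. None was called once the GC trend was subtracted, with NR1H2 at 0.41 and PPARD at 0.28, and the median of the 9 measured genes went from 0.35 to −0.18.

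The cofactors that RAR and VDR recruit on the list were all measured, 19 genes, with 1 called higher and 3 lower and a median of −0.17. The corepressor NCOR1, which holds histone deacetylases on unliganded RAR, was 22.6 FPKM with DMSO and 18.0 with Aza/TSA, a difference of −0.31. PRAME, a cancer-testis antigen reported to repress RAR, was the gene called higher, at 9.74 and 33.8 FPKM, a difference of 1.70. Lower were the coactivator NCOA7, at 55.8 and 12.7 FPKM, and the corepressor subunits TBL1XR1, at 82.4 and 30.1, and TBL1X, at 2.38 and 0.295. NCOR1 and HDAC3 were named after their values were seen. HDAC3, the deacetylase of this complex and a target of TSA, was 25.7 and 27.4 FPKM. With the GC trend subtracted TBL1XR1 was at −0.83, within 2-fold, and PRAME at 1.28.

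**Figure D4:**
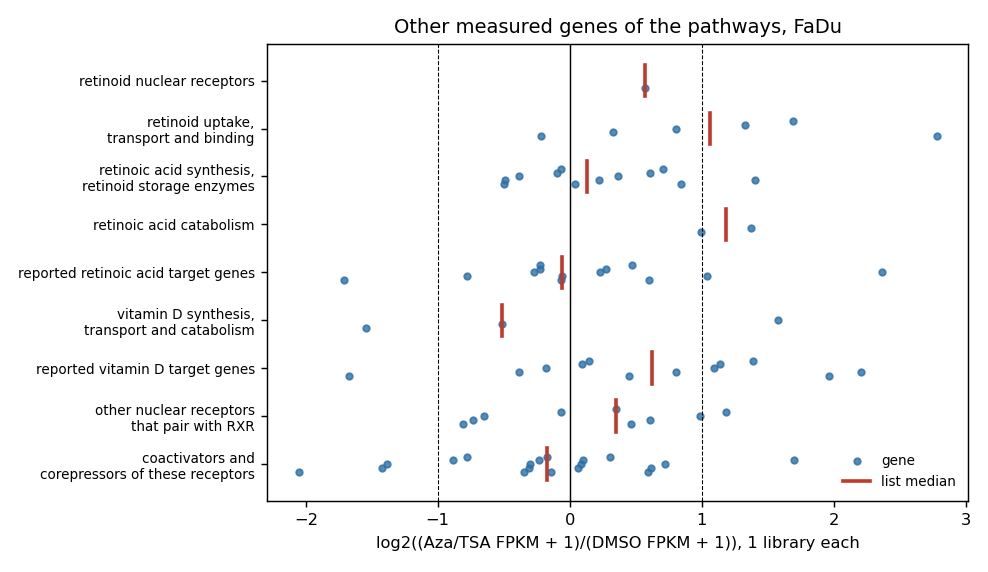
Log2 difference (Aza/TSA against DMSO, 1 library each) of the measured genes of each pathway list, the 9 genes left out, with the list median in red and 2-fold differences dashed. Retinoid carriers reach 2.78, while cofactors range from −2.05 to 1.70.

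Over the 9 lists together, with the 9 genes left out, 15 of 121 genes were called higher (12.4%) and 6 lower (4.96%), with a median difference of 0.06. Over all 25548 symbols the shares were 8.53% and 2.76% with a median of 0. Of the 76 measured genes of the lists, 19.7% were called higher and 7.89% lower, against 16.1% and 5.21% of all measured genes. Among the 15 called higher, 6 were under 1 FPKM in the DMSO library. With the GC trend subtracted 7 of the 76 were called higher and 7 lower. Of the 12529 measured genes with a known GC content, 7.53% and 4.34% were.

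**Figure D5:**
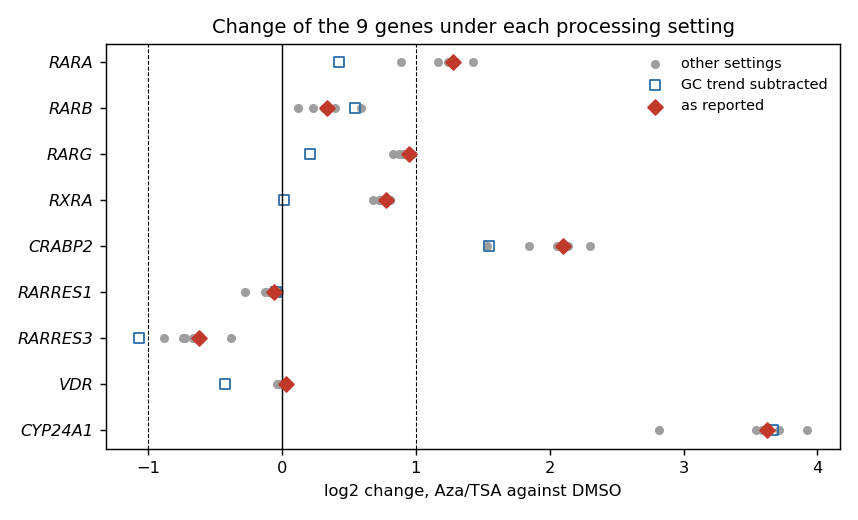
Log2 difference of each of the 9 genes as reported (diamonds), with the GC trend subtracted (open squares) and under the other settings (grey), with 2-fold differences dashed. CYP24A1 stays between 2.81 and 3.92 and CRABP2 between 1.53 and 2.30, while the squares of RARA, RARG and RXRA lie at 0.43, 0.21 and 0.01.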

How the data were processed

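RNA from FaDu and UMSCC47 cells, given DMSO or Aza with TSA, was sequenced from 1 stranded mRNA library per group, 4 in all. The authors deposited FPKM per gene symbol and library, per the file headers. TopHat 1.3.2, Cufflinks 2.0.2 and hg19 are named in the submitters' processing notes. What annotation, filters or scaling were used is not given in the sources used here.

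From the deposited FPKM, 45 repeated rows were summed by symbol, a pseudocount of 1 was added, and log2 differences were taken without rescaling. Genes at 1 FPKM or more in either library counted as measured. GC content and length came from the longest GENCODE release 29 transcript per gene, found for 92.4% of measured genes, and a lowess trend (fraction 0.3, statsmodels 0.14.6) was fitted over genes reaching 5 FPKM in both libraries. The calculation was tested on simulated data made only from genes at 5 FPKM or more in the DMSO library, so not for genes under that level. Promoters came from RefSeq. The 9 genes and the 9 pathway lists, written from general knowledge, were chosen with earlier results of these data known. Genes named are the 9, measured retinoid receptors, up to 4 genes per list with the widest difference and the 3 genes nearest in level to the 9 genes' most and least different members; others, such as RXRG, TTR, SPP1, HDAC3 and TOP2B, were named after their values were seen. Some genes of these pathways are not reported here. BCO1 was matched by its older symbol. Other settings were other pseudocounts, filters and scalings, the highest row per symbol, and GC or length correction.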

Additional observations from a re-analysis of the deposited data

How the results depend on the processing

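The 9 genes were recomputed under 9 alternative settings. CYP24A1 and CRABP2 were past 2-fold under each, at 2.81 to 3.92 and 1.53 to 2.30. RARA fell under 2-fold with a pseudocount of 5 (0.89) and with the GC trend subtracted (0.43). RARRES3 then passed 2-fold lower, which made 1 member lower. VDR changed sign with TPM scaling (−0.04), median-ratio scaling (−0.02) and GC correction (−0.42). With a minimum of 5 FPKM, RARB and RARRES1 were not counted. Of 76 pathway genes 15 were called higher as reported, where 16.1% of all measured genes were. With a pseudocount of 5 this was 5 of 76, beside 6.59% of all genes counted. With the minimum of 5 FPKM it was 7 of 49, beside 15.8%, and after GC correction 7 of 76, beside 7.53%. The count was 19 of 76 with a pseudocount of 0.1, beside 21.7%, and 19 of 85 with TPM scaling, beside 17.9%. Over all genes 2178 were higher as reported. This was 2948 with a pseudocount of 0.1, 2681 with TPM scaling, 893 with a pseudocount of 5 and 944 after GC correction. Lower were 706 as reported, and 1182, 253 and 1152 with pseudocounts of 0.1 and 5 and with TPM scaling. After GC correction 544 were lower. The genes counted were 12529 after GC correction and 14937 with TPM scaling, against 13558 as reported. GC correction lowered the median of all measured genes by construction, from 0.13 to 0.01. A larger pseudocount shrinks every difference by construction, and a smaller one widens it. The cause of the other shifts was not tested. The read depth behind each FPKM is unknown, which limits RARB, RARRES1 and other genes near 1 FPKM most. No paired analysis was possible because each group had 1 library.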
